A study of Mus musculus with 12 samples.

Results

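The imprinted growth genes were 9 genes taken by symbol from the deposited expression table: H19, Dlk1, Meg3, Peg3, Mest, Plagl1, Ndn, Grb10 and Sgce. All 9 were found among the 55487 genes of the table, and all 9 reached at least 1 CPM (reads of a gene per 1000000 reads assigned to genes) in at least 3 libraries. They were followed across 4 populations of cancer-associated fibroblasts sorted from the mammary tumours of 3 untreated FVB MMTV-PyMT mice (numbers 27, 30 and 31) aged 10 weeks, with 1 library per population and mouse. In this strain the mammary tumour virus promoter drives the polyoma middle T oncogene, chiefly in mammary epithelium, and every library came from a mouse carrying it, so no tumour-free tissue was compared. All 4 gates took live PDGFRb+ cells that lacked CD45, CD31 and EPCAM. The vcaf gate then required CD146 and excluded Ly6C and PDGFRa. The icaf gate required Ly6C. The m2cafpos and m2cafneg gates excluded Ly6C and CD146 and required PDGFRa, with NCAM present in m2cafpos and absent in m2cafneg.

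Imprinted genes are expressed mainly from the allele inherited from 1 parent, as set by DNA methylation laid down in the germ line. Many of them act on growth before and after birth, and several are high in embryonic mesenchyme and fall after birth. H19, Meg3 and, in most tissues, Grb10 are expressed from the maternal allele, and Dlk1, Peg3, Mest, Plagl1, Ndn and Sgce from the paternal allele. The values here sum both alleles, so they say how much RNA of a gene was present and not which allele made it. In such bulk samples, fewer cells that express a gene and less RNA per cell cannot be told apart.

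The libraries held 43898839 to 55363203 reads assigned to genes, so a single read stood for 0.0181 to 0.0228 CPM. Ncam1, Ly6c1 and Mcam followed the gates. Ncam1 stood at 564 to 604 CPM in m2cafpos against 26.1 to 37.2 CPM in m2cafneg. Ly6c1 was at 1004 to 1266 CPM in icaf and at most 81.3 CPM in each other library. Mcam, which encodes CD146, was at 245 to 295 CPM in vcaf and at most 19.8 CPM elsewhere. Pdgfra, excluded from vcaf, was lower there than in the mean of the other 3 populations (log2 fold change -5.98). Genes of antigens excluded from every gate were higher in vcaf by the same comparison (Epcam 2.21, Pecam1 2.42 and Ptprc 1.19). Pdgfrb, required in every gate, was lower in icaf than in the mean of both m2caf populations (log2 fold change -2.01). Although vcaf is labelled a fibroblast population, all 10 pericyte markers were higher in it than in the mean of the other 3 populations and all 10 fibroblast markers were lower. Of all genes tested, 53.3% were higher and 14.2% lower in that comparison. The pericyte markers summed to 35550 to 57353 CPM in vcaf, 166 to 361 CPM in icaf, 157 to 225 CPM in m2cafpos and 173 to 573 CPM in m2cafneg. Epithelial RNA differed as well: the 20 epithelial markers summed to 22394 to 45346 CPM in vcaf, 3089 to 8261 CPM in icaf, 2298 to 8162 CPM in m2cafpos and 15062 to 33154 CPM in m2cafneg. All 20 were higher in vcaf than in icaf and than in m2cafpos, beside 46.1% and 55.5% of all genes. Between vcaf and m2cafneg they were not shown to differ (median log2 fold change 0.51, with no limma call). Of the 20, 19 were lower in m2cafpos than in m2cafneg and 19 lower in icaf than in m2cafneg, beside 22.6% and 20.9% of all genes. The 12 macrophage markers summed to 572 to 1366 CPM in vcaf, 96.9 to 219 CPM in icaf, 155 to 238 CPM in m2cafpos and 618 to 995 CPM in m2cafneg. Nerve sheath markers, of which 9 of 10 were tested, were higher in vcaf for 8 and lower for 1, beside 53.3% and 14.2% of all genes. They summed to 258 to 345 CPM in vcaf, 92.2 to 116 CPM in icaf, 49.8 to 81.2 CPM in m2cafpos and 173 to 253 CPM in m2cafneg. The 12 endothelial markers summed to 484 to 717 CPM in vcaf, 169 to 297 CPM in icaf, 69.4 to 128 CPM in m2cafpos and 212 to 556 CPM in m2cafneg, although CD31 was gated out. Of these, 9 were higher and 1 lower in vcaf than in the mean of the other 3, beside 53.3% and 14.2% of all genes. Of the endothelial markers, 8 were lower in m2cafpos than in m2cafneg, beside 22.6% of all genes. Against the mean of both m2caf populations, 5 were lower and 1 higher in icaf, beside 14.2% and 12.1% of all genes. Against m2cafpos alone, 1 was lower and 1 higher in icaf, beside 8.86% and 15% of all genes. No marker of these lists was at 0 throughout. The epithelial markers were entered as a covariate, as given below, and the part of the macrophage, endothelial and nerve markers in the results was not tested.

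The 9 genes divided by the population in which they were highest. Dlk1 was highest in vcaf, H19 and Plagl1 in m2cafpos, and Ndn, Grb10 and Sgce in icaf, each of them in 3 of 3 mice. Meg3 was highest in m2cafpos or vcaf, and Peg3 and Mest had no population that was highest in all mice. Per kilobase of annotated exon, Dlk1 ranked last of the 9 in icaf, m2cafpos and m2cafneg. In vcaf Dlk1 at 15.6 ± 3.86 CPM per kb (SD, n = 3) and Meg3 at 15.4 ± 3.88 CPM per kb were the top 2 and close to each other. Meg3 was the higher of them in mouse 27 (15.93 against 15.84 CPM per kb). Ndn ranked first in icaf at 65.4 ± 2.32 CPM per kb and H19 first in m2cafpos at 65.6 ± 9.76 CPM per kb. In m2cafneg Ndn again ranked first, at 38.8 ± 10.2 CPM per kb. The members' summed level was 621 ± 112 CPM in vcaf, 995 ± 121 CPM in icaf, 923 ± 229 CPM in m2cafpos and 627 ± 110 CPM in m2cafneg (SD, n = 3 each).

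**Figure D1:**
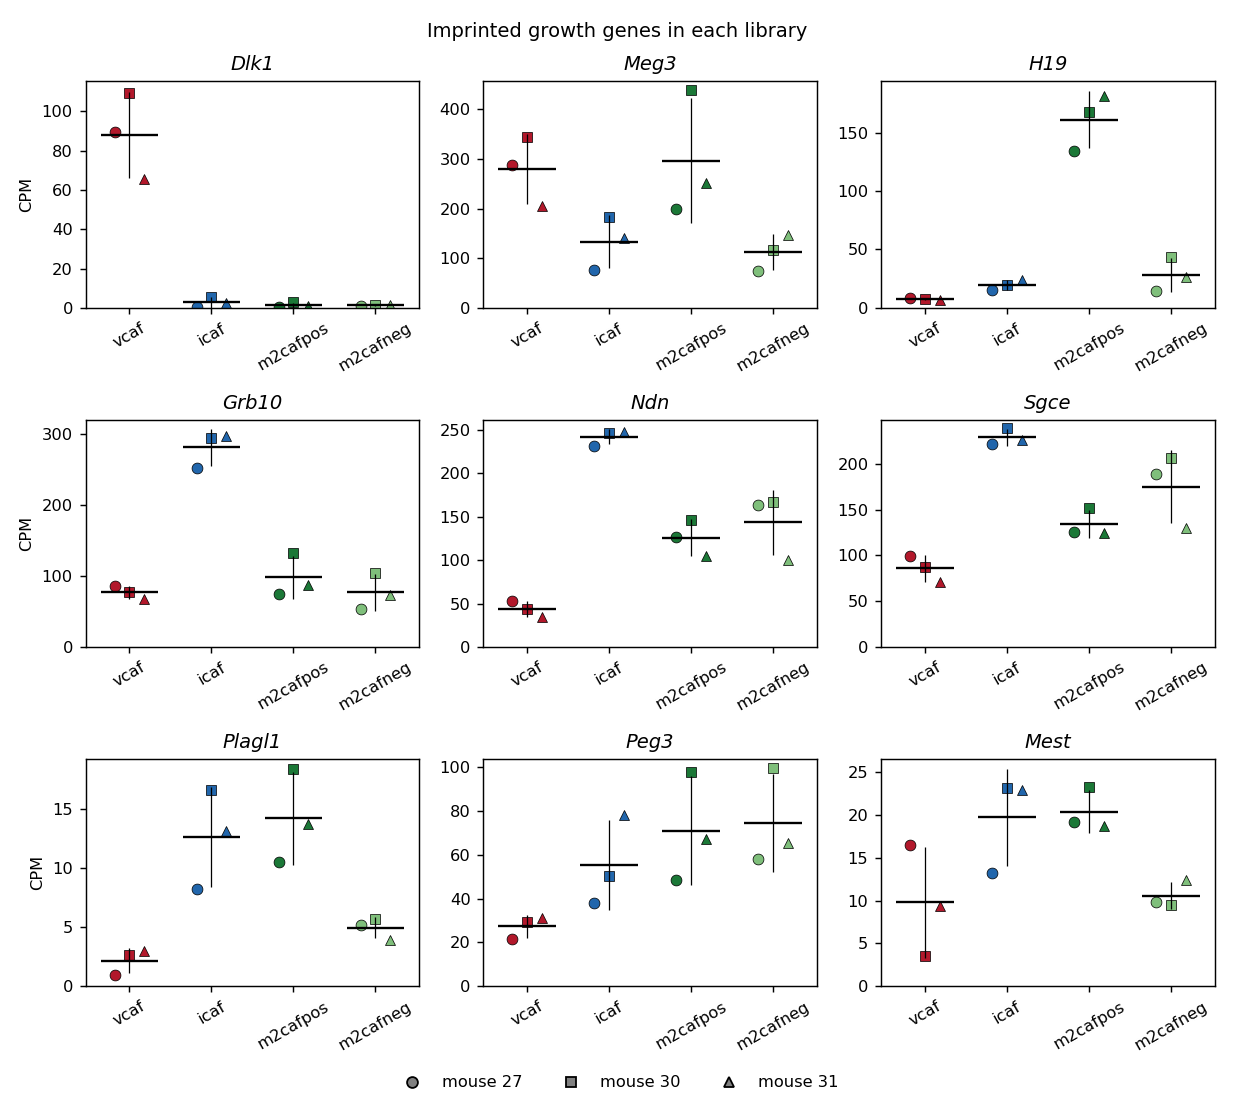
CPM of each of the 9 genes (vertical axis, from 0, with its own scale per panel) in the vcaf, icaf, m2cafpos and m2cafneg libraries (horizontal axis). Symbols are mice, horizontal lines are means and vertical lines are SDs of 3 libraries. Dlk1 lies at 65.6 to 109 CPM in vcaf and at most 5.74 CPM elsewhere, H19 at 135 to 181 CPM in m2cafpos and at most 43.3 CPM elsewhere, and Ndn at 232 to 247 CPM in icaf and at most 167 CPM elsewhere.

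Dlk1 and Meg3 are neighbours in an imprinted domain of chromosome 12 and are made from opposite parental alleles. Dlk1 (chr12:109452823-109463336, plus strand, GRCm38) encodes a membrane protein related to Notch ligands that is known for holding back the differentiation of preadipocytes. Meg3 (chr12:109541001-109571726, plus strand) is a long noncoding RNA gene that starts 77.7 kb after the end of Dlk1. The 300 bases around each start site, from 250 before it to 50 after it, are shown because these genes share a domain and were compared in the same populations. They are RefSeq windows on GRCm38.p6, at chr12:109452573-109452872 and chr12:109540746-109541045, both plus strand, with that of Meg3 the first of 2 listed. Capitals mark a cyclic AMP response element (TGACGTCA, searched on both strands) and a TATA box (TATAAA, searched on the strand shown), which do not overlap.
Dlk1 promoter: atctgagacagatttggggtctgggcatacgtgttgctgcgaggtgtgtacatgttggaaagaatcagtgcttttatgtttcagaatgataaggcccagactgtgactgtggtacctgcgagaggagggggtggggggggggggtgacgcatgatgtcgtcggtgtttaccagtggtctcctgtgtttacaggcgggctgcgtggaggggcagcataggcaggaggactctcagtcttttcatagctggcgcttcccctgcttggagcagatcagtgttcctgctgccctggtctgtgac
Meg3 promoter: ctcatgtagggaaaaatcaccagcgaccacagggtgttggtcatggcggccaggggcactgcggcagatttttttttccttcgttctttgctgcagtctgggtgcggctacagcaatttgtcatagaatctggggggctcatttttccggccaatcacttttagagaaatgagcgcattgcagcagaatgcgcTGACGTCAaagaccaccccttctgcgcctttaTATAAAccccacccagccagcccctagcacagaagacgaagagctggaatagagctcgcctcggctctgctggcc
The first Meg3 window held the response element at position -57 and the TATA box at -25, counted from the start site, and the Dlk1 window held neither. Of 32851 promoter windows of the same length, 1.79% held the response element and 8.32% the TATA box. These windows held 9 CpG dinucleotides for Dlk1 and 13 for Meg3, and the second Meg3 window held 1 and none of the motifs, against a median of 7 over all windows. A match of letters is a description and not evidence of binding.

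Dlk1 stood at 89.6, 109 and 65.6 CPM in the vcaf libraries of mice 27, 30 and 31, at 0.532, 5.74 and 2.28 CPM in icaf, at 0.524, 2.85 and 0.911 CPM in m2cafpos and at 0.784, 1.53 and 1.60 CPM in m2cafneg. Every vcaf library was above every other library. The lowest vcaf value was that of mouse 31, and the highest value elsewhere was that of icaf in mouse 30. Dlk1 was 5.10 higher in vcaf than in the mean of the other 3 populations on the log2(CPM + 1) scale (SE 0.38, limma adjusted p = 3.01e-07), a scale on which changes of genes near 1 CPM are understated. The other 3 populations did not differ from each other at the 0.05 threshold, with adjusted p-values of 0.474 for icaf against m2cafpos, 0.448 for icaf against m2cafneg and 0.980 for m2cafpos against m2cafneg.

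Meg3 stood at 288, 344 and 205 CPM in vcaf, 76.4, 182 and 141 CPM in icaf, 199.7, 439 and 252 CPM in m2cafpos and 74.5, 117 and 146 CPM in m2cafneg. The vcaf and m2cafpos ranges overlapped, and both lay above all icaf and m2cafneg values. Meg3 was higher in m2cafpos than in m2cafneg, by 1.36 on the log2 scale (SE 0.36, limma adjusted p = 0.0169), and in each of the 3 mice, by 2.68, 3.75 and 1.73 times. In vcaf it was 0.80 higher than in the mean of the other 3 populations (SE 0.29, adjusted p = 0.0279) and against m2cafpos alone it differed by -0.04 (SE 0.36, adjusted p = 0.928). The vcaf call did not hold when libraries were rescaled by TMM factors (0.39, adjusted p = 0.295), without vcaf of mouse 27 (adjusted p = 0.0866) or without vcaf of mouse 30 (adjusted p = 0.131). The same call was lost with median-of-ratios factors (limma adjusted p = 0.300), with edgeR's test (adjusted p = 0.343) and without the filter on low values (limma adjusted p = 0.0821). The m2cafpos call did not hold without m2cafpos of mouse 30 (1.04, adjusted p = 0.0645) or without m2cafneg of mouse 27 (1.10, adjusted p = 0.0543). It was also lost without the filter on low values (limma adjusted p = 0.0623).

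The domain's other noncoding RNA genes, Rian and Mirg, which host clusters of small nucleolar RNAs and microRNAs, had their highest means in vcaf and the next highest in m2cafpos. Rian stood at 81.2, 93.2 and 59.0 CPM in vcaf, 38.9, 58.3 and 40.8 CPM in icaf, 51.5, 70.1 and 53.3 CPM in m2cafpos and 24.0, 24.4 and 23.6 CPM in m2cafneg. It was 0.92 higher in vcaf than in the other 3 populations (SE 0.15, limma adjusted p = 0.000252) and 1.23 higher in m2cafpos than in m2cafneg (SE 0.19, adjusted p = 0.00184). Mirg, at 1.82 to 12.4 CPM over all libraries, was 1.14 higher in vcaf (SE 0.22, adjusted p = 0.000721) and 1.11 higher in m2cafpos against m2cafneg (SE 0.27, adjusted p = 0.0121). With the epithelial covariate the m2cafpos calls of Rian (0.73, adjusted p = 0.173) and Mirg (adjusted p = 0.510) ended and the vcaf calls did not. Dio3, at the far end of the domain, encodes the enzyme that inactivates thyroid hormone and had another pattern. It stood at 0.160, 0 and 0.314 CPM in vcaf, 1.80, 0.668 and 1.94 CPM in icaf, 18.3, 16.3 and 19.4 CPM in m2cafpos and 4.03, 1.10 and 6.10 CPM in m2cafneg. All m2cafpos values lay above all others, and Dio3 was 2.17 higher there than in m2cafneg (SE 0.37, adjusted p = 0.00281) and lower in vcaf than in the rest (log2 fold change -2.32, SE 0.30, adjusted p = 3.86e-05). Rtl1, a retrotransposon-derived gene of the domain, stayed between 0.665 and 3.10 CPM. It was 0.60 higher in m2cafpos than in m2cafneg (SE 0.18, adjusted p = 0.0302), a call that ended when any of 5 of these 6 libraries was left out, all but m2cafpos of mouse 31.

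**Figure D2:**
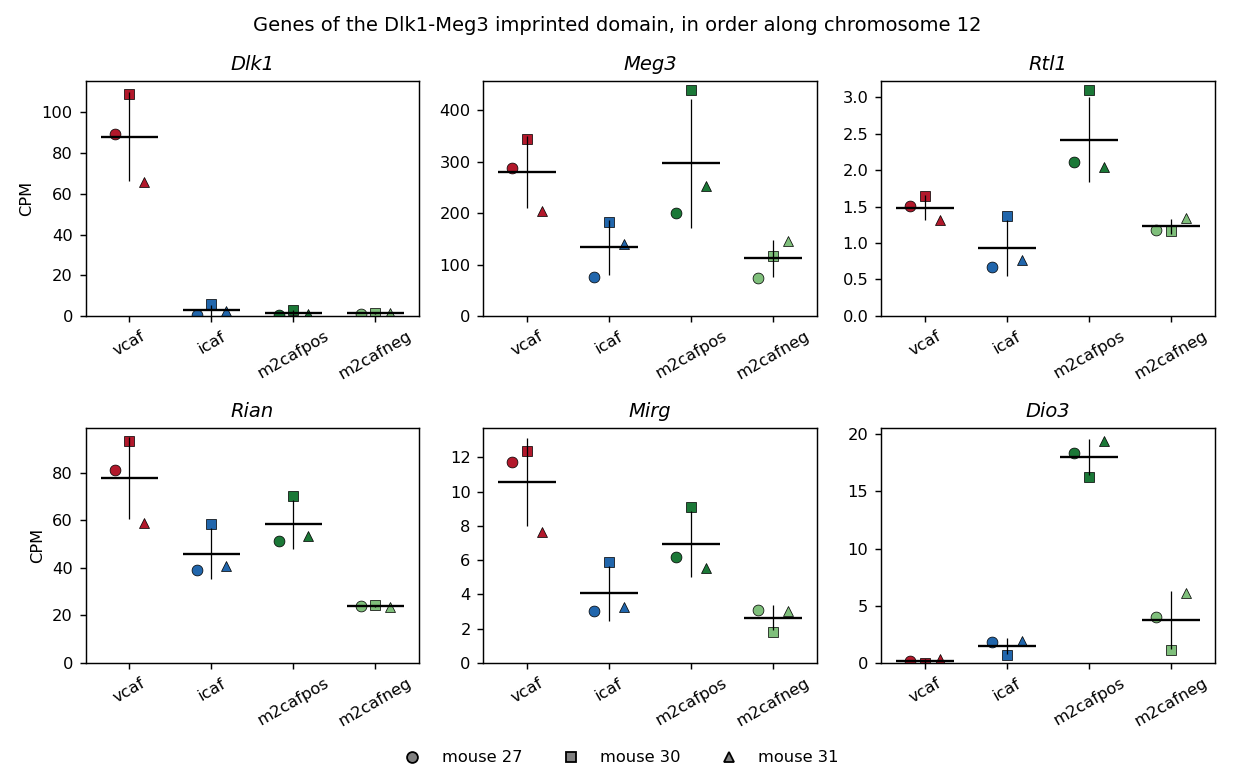
CPM of 6 genes of the Dlk1-Meg3 domain (vertical axes from 0, each with its own scale) in the 4 populations, with symbols for mice, horizontal lines for means and vertical lines for SDs of 3 libraries. Dlk1 lies at 65.6 to 109 CPM in vcaf and at most 5.74 CPM elsewhere, Meg3, Rian and Mirg have their 2 highest means in vcaf and m2cafpos, and Dio3 lies at 16.3 to 19.4 CPM in m2cafpos and at most 6.10 CPM elsewhere.

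H19 (chr7:142575529-142578143, minus strand, GRCm38) is a maternally expressed long noncoding RNA gene whose first exon holds the hairpin of miR-675, known in mice to restrain placental growth. The values below are of the host transcript and not of the microRNAs. The annotated microRNA hairpin gene, Mir675, was listed at 0. The mature microRNA sequences of H19 and of Meg3, which hosts miR-770, are shown because both host genes were called between the NCAM gates. Capitals mark the seed, bases 2 to 8, and no seed is shared. The sequences are from RefSeq on GRCm38.p6.
mmu-miR-675-5p: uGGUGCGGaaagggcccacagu
mmu-miR-675-3p: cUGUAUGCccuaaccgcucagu
mmu-miR-770-5p: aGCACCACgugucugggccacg
mmu-miR-770-3p: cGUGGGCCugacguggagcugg

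H19 stood at 8.07, 7.45 and 7.02 CPM in vcaf, 15.1, 19.7 and 23.5 CPM in icaf, 135, 168 and 181 CPM in m2cafpos and 14.3, 43.3 and 26.8 CPM in m2cafneg. All m2cafpos values were above all others, all vcaf values were below all others, and icaf and m2cafneg overlapped. H19 was higher in m2cafpos than in m2cafneg by 2.60 on the log2 scale (SE 0.30, limma adjusted p = 0.000464), and the ratio within a mouse was 9.43 in mouse 27, 3.88 in mouse 30 and 6.76 in mouse 31. It was lower in vcaf than in the mean of the other 3 populations (log2 fold change -2.38, SE 0.24, adjusted p = 5.02e-06). It was lower in icaf than in the mean of both m2caf populations (log2 fold change -1.70, SE 0.26, adjusted p = 0.000373). Against m2cafneg alone the icaf value was -0.40 (SE 0.30, adjusted p = 0.340), and it passed the threshold when m2cafneg of mouse 27 was left out (-0.80, adjusted p = 0.0203).

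Igf2, the growth factor gene that shares an enhancer region with H19 and is made from the other allele, was at most 0.320 CPM in any library. In the GENCODE annotation 62.8% of its exonic bases lie in the same-strand gene model Gm49394, which was listed at 0, and how reads shared by both were counted is not given in the sources used here. Low Igf2 values may therefore not be read as absence. In the same region Cdkn1c, a maternally expressed inhibitor of the cell cycle, stood at 3.54, 4.66 and 2.00 CPM in vcaf, 6.12, 9.75 and 8.79 CPM in icaf, 6.32, 6.69 and 6.15 CPM in m2cafpos and 10.6, 28.4 and 9.99 CPM in m2cafneg. Its difference of -1.25 in vcaf against the rest passed the test (SE 0.28, adjusted p = 0.00202), though not with the epithelial covariate. Unlike H19, Cdkn1c was lower in m2cafpos than in m2cafneg (log2 fold change -1.07, SE 0.35, limma adjusted p = 0.0390). With the epithelial covariate it was not called lower there. Igf2r, whose product clears IGF2 from the cell surface, was at 107 to 190.0 CPM in every library. It was 0.42 higher in vcaf (SE 0.13, adjusted p = 0.0117), a difference close to the median over all genes and lost after TMM scaling (0.01, adjusted p = 0.942) and without vcaf of mouse 30 (adjusted p = 0.0663).

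Plagl1 (chr10:13060504-13131694, plus strand, GRCm38) encodes a zinc-finger transcription factor that in mouse is known to act on other imprinted genes, H19 among them. It stood at 0.921, 2.62 and 2.96 CPM in vcaf, 8.21, 16.6 and 13.1 CPM in icaf, 10.5, 18.4 and 13.8 CPM in m2cafpos and 5.22, 5.67 and 3.95 CPM in m2cafneg. The order m2cafpos, icaf, m2cafneg, vcaf was the same in 3 of 3 mice. Plagl1 was 1.34 higher in m2cafpos than in m2cafneg (SE 0.31, limma adjusted p = 0.0104) and lower in vcaf than in the rest (log2 fold change -1.80, SE 0.25, adjusted p = 7.85e-05). The neighbours m2cafpos and icaf in that order did not differ beyond their spread (icaf against m2cafpos -0.18, SE 0.31, adjusted p = 0.749). The related gene Plagl2 was at 6.49 to 10.4 CPM in all libraries and Plag1 at most 0.407 CPM.

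Ndn, Grb10 and Sgce were highest in icaf. Ndn (chr7:62346569-62350262, plus strand) encodes necdin, a MAGE family protein known in mouse to restrain the cell cycle of neurons and to inhibit adipocyte differentiation. Grb10 (chr11:11930508-12038683, minus strand) encodes an adaptor that damps signalling from the insulin and IGF1 receptors. Sgce (chr6:4674350-4747207, minus strand) encodes epsilon-sarcoglycan, a membrane glycoprotein of the dystrophin complex. The RefSeq promoter windows of Ndn and Grb10 are shown because both genes were highest in icaf, and the table lists 2 windows for Grb10, of which the first is shown. They lie at chr7:62348027-62348326 (plus strand) and chr11:12037371-12037670 (minus strand) on GRCm38.p6. Neither the motifs above nor GGGGCCCC or GCCATNTT (the YY1 motif), both searched on both strands, were found in them. GCCATNTT was in 6.05% of all windows and in none of the 11 windows of the members.
Ndn promoter: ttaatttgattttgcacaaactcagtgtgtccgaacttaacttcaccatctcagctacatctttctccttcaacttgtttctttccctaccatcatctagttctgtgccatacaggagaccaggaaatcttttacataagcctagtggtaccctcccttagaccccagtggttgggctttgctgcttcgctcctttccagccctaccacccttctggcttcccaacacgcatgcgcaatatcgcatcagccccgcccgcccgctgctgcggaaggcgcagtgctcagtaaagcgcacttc
Grb10 promoter: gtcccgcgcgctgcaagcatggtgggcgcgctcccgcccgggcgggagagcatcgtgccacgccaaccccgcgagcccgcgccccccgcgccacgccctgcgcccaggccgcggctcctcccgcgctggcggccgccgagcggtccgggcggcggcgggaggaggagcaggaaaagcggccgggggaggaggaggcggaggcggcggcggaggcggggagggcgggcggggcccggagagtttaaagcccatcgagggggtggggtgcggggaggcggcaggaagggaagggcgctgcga
The first Grb10 window held 45 CpG dinucleotides, more than 98.1% of all windows, and the second held 9, more than 54.2% of them. The Ndn window held 11, more than 58.6%.

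Ndn stood at 53.2, 43.6 and 35.1 CPM in vcaf, 232, 246 and 247 CPM in icaf, 127, 146 and 104 CPM in m2cafpos and 163, 167 and 100.1 CPM in m2cafneg. The icaf libraries were the highest and the vcaf libraries the lowest without overlap, and the coefficient of variation over mice was 3.55% in icaf against 26.2% in m2cafneg. Ndn was 0.87 higher in icaf than in the mean of both m2caf populations (SE 0.17, limma adjusted p = 0.00269) and lower in vcaf than in the rest (log2 fold change -1.87, SE 0.16, adjusted p = 1.21e-06).

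Grb10 stood at 86.2, 76.9 and 67.6 CPM in vcaf, 252, 295 and 298 CPM in icaf, 74.3, 133 and 87.5 CPM in m2cafpos and 53.2, 105 and 73.1 CPM in m2cafneg. All icaf values were above all others, and the other 3 populations overlapped. It was 1.73 higher in icaf than in the mean of both m2caf populations (SE 0.20, limma adjusted p = 5.79e-05), and by 3.95, 2.48 and 3.71 times in the 3 mice. Grb10 was lower in vcaf than in the rest (log2 fold change -0.71, SE 0.19, adjusted p = 0.00613), with a value of -1.11 after TMM scaling. That value compares vcaf with a mean that includes icaf, and against m2cafneg alone vcaf differed by 0.04 (SE 0.24, adjusted p = 0.893).

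Sgce stood at 99.7, 87.8 and 70.6 CPM in vcaf, 221, 239 and 226 CPM in icaf, 126, 151 and 125 CPM in m2cafpos and 189, 206 and 130.2 CPM in m2cafneg. The order icaf, m2cafneg, m2cafpos, vcaf was the same in 3 of 3 mice. It was 0.59 higher in icaf than in the mean of both m2caf populations (SE 0.15, limma adjusted p = 0.00967) and lower in vcaf than in the rest (log2 fold change -1.02, SE 0.14, adjusted p = 5.24e-05). For m2cafpos against m2cafneg the value was -0.36 (SE 0.17, adjusted p = 0.130), and with the mouse as a block it passed the threshold (adjusted p = 0.0476), as did icaf against m2cafneg (0.41, adjusted p = 0.0846 without and 0.0256 with the block). The m2cafpos comparison also passed without m2cafneg of mouse 31 (-0.56, adjusted p = 0.0267). Peg10, a retrotransposon-derived gene that starts 98 bases from Sgce on the other strand and is imprinted alike, was also highest in icaf. Peg10 stood at 1.08, 1.70 and 0.627 CPM in vcaf, 4.37, 9.16 and 4.75 CPM in icaf, 1.57, 1.93 and 1.07 CPM in m2cafpos and 1.46, 3.42 and 2.07 CPM in m2cafneg. It was 1.26 higher in icaf than in the mean of both m2caf populations (SE 0.26, adjusted p = 0.00303), and with the epithelial covariate this call ended (adjusted p = 0.0828).

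Peg3 (chr7:6703892-6730431, minus strand) encodes a zinc-finger protein linked in mouse to maternal care and to p53-dependent cell death. It stood at 21.3, 29.5 and 31.0 CPM in vcaf, 37.8, 50.2 and 78.2 CPM in icaf, 48.3, 98.0 and 67.1 CPM in m2cafpos and 58.0, 99.9 and 65.7 CPM in m2cafneg. All vcaf values were below all others, and the other 3 populations overlapped. Peg3 was lower in vcaf than in the rest (log2 fold change -1.22, SE 0.24, limma adjusted p = 0.000916). Its window (not shown) held a cyclic AMP response element at position -178 and, at -201, the letters GGGGCCCC, which resemble the motif of PLAGL1 and do not overlap it. GGGGCCCC was searched on both strands and was in 1.08% of all windows. Zim1, a neighbouring zinc-finger gene, had no read in any vcaf library, which allows up to 0.0601 CPM at 3 reads, and stood at 0.703 to 2.24 CPM in the other libraries (limma adjusted p = 0.000179 for vcaf against the rest, 0.0884 with the epithelial covariate).

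Mest (chr6:30723547-30748465, plus strand) encodes a protein of the hydrolase fold that is known to mark the expansion of fat in mice. It stood at 16.6, 3.57 and 9.33 CPM in vcaf, 13.2, 23.2 and 22.9 CPM in icaf, 19.2, 23.3 and 18.7 CPM in m2cafpos and 9.84, 9.52 and 12.4 CPM in m2cafneg. The vcaf libraries were the most spread of any population, with a coefficient of variation of 66.3%. Mest was lower in vcaf than in the rest (log2 fold change -0.86, SE 0.31, limma adjusted p = 0.0263). The call ended without vcaf of mouse 30 (-0.34, adjusted p = 0.220) and without vcaf of mouse 31 (adjusted p = 0.0516), and without vcaf of mouse 27 the value was -1.31 (adjusted p = 0.00243). Without the filter on low values the call also ended (limma adjusted p = 0.0735). All m2cafpos values lay above all m2cafneg values, by 1.95, 2.44 and 1.5 times in the 3 mice, and the test gave 0.89 (SE 0.38, adjusted p = 0.102). That difference passed the threshold with median-of-ratios scaling (1.16, adjusted p = 0.0467) and without vcaf of mouse 27 (adjusted p = 0.0449) or of mouse 30 (adjusted p = 0.0225), since the spread is shared by all populations. Of the exonic bases of Mest, 23.1% overlap Copg2 on the other strand, and since the counting's use of strand is not given, reads there cannot be told apart.

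Set side by side, 9 of 9 members differed between vcaf and the mean of the others, 2 higher and 7 lower, where 67.5% of all 15456 genes tested were called, 53.3% higher and 14.2% lower. The members' median log2 fold change was -1.02 and that of all genes 0.38. Under TMM scaling the median of all genes was 0.02 and 49.4% of calls were higher, against 79.0% in the values as deposited. Relative to the all-gene median, Dlk1 was 4.72 higher, Meg3 0.42 higher and the other 7 members between 1.09 and 2.76 lower (Grb10 -1.09, H19 -2.76). With the epithelial markers as a covariate 5 of the 9 remained called, namely H19, Dlk1, Plagl1, Ndn and Sgce. Sgce then changed by -0.57 and Grb10 by -0.26, and neither Meg3, Peg3, Mest nor Grb10 passed the threshold (adjusted p = 0.102, 0.0575, 0.226 and 0.559).

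In icaf against the mean of m2cafpos and m2cafneg, 4 of 9 members were called, with Grb10, Ndn and Sgce higher and H19 lower, where 26.3% of all genes were called, 12.1% higher and 14.2% lower. With the epithelial covariate H19 and Grb10 remained called, and Ndn (0.53, adjusted p = 0.0826) and Sgce (0.31, adjusted p = 0.234) did not. In m2cafpos against m2cafneg, 3 of 9 were called, all higher (H19, Meg3 and Plagl1), where 26.1% of all genes were called, 3.51% higher and 22.6% lower. The all-gene median in this comparison was -0.23 as deposited and 0.00 after TMM scaling, under which 46.4% of calls were higher against 13.4% as deposited. With the epithelial covariate H19 remained called, and Meg3 (0.95, adjusted p = 0.412) and Plagl1 (1.27, adjusted p = 0.229) did not.

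Over all 6 pairs of populations, 34 of the 54 member-by-pair tests passed, against 40.9% of all gene-by-pair tests, and 19 passed with the epithelial covariate. Between vcaf and icaf all 9 members were called, Dlk1 and Meg3 higher in vcaf and the other 7 lower, where 59.9% of all genes were called, 46.1% higher and 13.9% lower. With the epithelial covariate Dlk1, Plagl1 and Ndn remained called in that pair (limma adjusted p = 0.00104, 0.0432 and 0.00305). H19, Meg3, Peg3, Mest, Grb10 and Sgce were not called (adjusted p = 0.140, 0.127, 0.309, 0.302, 0.0691 and 0.0661). Without the covariate Meg3 did not pass after TMM scaling (0.71, limma adjusted p = 0.120), without vcaf of mouse 30 (adjusted p = 0.0655) or without icaf of mouse 27 (adjusted p = 0.0804). Nor did Meg3 pass with median-of-ratios factors (limma adjusted p = 0.121), with edgeR's test (adjusted p = 0.163) or without the filter (limma adjusted p = 0.0556). Peg3 did not pass without vcaf of mouse 27 (adjusted p = 0.0657) or icaf of mouse 31 (adjusted p = 0.0724), and Mest not without vcaf of mouse 30 (-0.58, adjusted p = 0.0883), icaf of mouse 30 (adjusted p = 0.0778) or icaf of mouse 31 (adjusted p = 0.0744). Mest was also lost in this pair without the filter on low values (limma adjusted p = 0.0685). Between vcaf and m2cafpos 7 were called, Dlk1 higher and the other 6 lower, against 67.9% of all genes, 55.5% higher and 12.4% lower. Meg3 and Grb10 were the members that did not pass there, and Grb10 passed after TMM scaling (-0.85, limma adjusted p = 0.0120), while Mest was lost without vcaf of mouse 30 (-0.66, adjusted p = 0.0518). With the covariate H19, Dlk1 and Plagl1 remained called there, and Peg3, Mest, Ndn and Sgce did not (adjusted p = 0.115, 0.213, 0.0781 and 0.932). Between vcaf and m2cafneg 7 were called, Dlk1 and Meg3 higher and 5 lower, against 37.9% of all genes, 26.6% higher and 11.3% lower. Mest and Grb10 did not pass. Single libraries left out ended the calls of Meg3 (adjusted p = 0.0563 without m2cafneg of mouse 27) and Plagl1 (adjusted p = 0.118 without vcaf of mouse 27, 0.0761 and 0.0847 without m2cafneg of mouse 27 and 30). With all libraries in, Meg3 was also lost with edgeR's test (adjusted p = 0.0621). Plagl1 was also lost without the filter on low values (limma adjusted p = 0.0742). With the epithelial covariate all 7 calls held, 2 higher and 5 lower. Between icaf and m2cafpos 5 were called, Ndn, Grb10 and Sgce higher in icaf and H19 and Meg3 lower, against 23.9% of all genes, 15% higher and 8.86% lower. Of these Meg3 was lost without icaf of mouse 27 or 31 or m2cafpos of mouse 30 or 31 (adjusted p = 0.144, 0.0514, 0.130 and 0.0637). Meg3 was also lost without the filter on low values (limma adjusted p = 0.109). With the epithelial covariate all 5 calls of this pair held. Between icaf and m2cafneg Plagl1, Ndn and Grb10 were called, all higher in icaf, against 29.7% of all genes, 8.77% higher and 20.9% lower. All 3 calls ended with the epithelial covariate, with 1.09 for Plagl1 (limma adjusted p = 0.371), 0.14 for Ndn (adjusted p = 0.860) and 1.37 for Grb10 (adjusted p = 0.0799). Plagl1 was also lost without icaf of mouse 30 (adjusted p = 0.0673) or m2cafneg of mouse 31 (adjusted p = 0.0575), and Sgce passed after TMM scaling (0.54, adjusted p = 0.0451) and without m2cafneg of mouse 30 (adjusted p = 0.0364). Mest passed without vcaf of mouse 30 (0.81, adjusted p = 0.0275). Comparisons that share a population are not independent of each other.

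**Figure D3:**
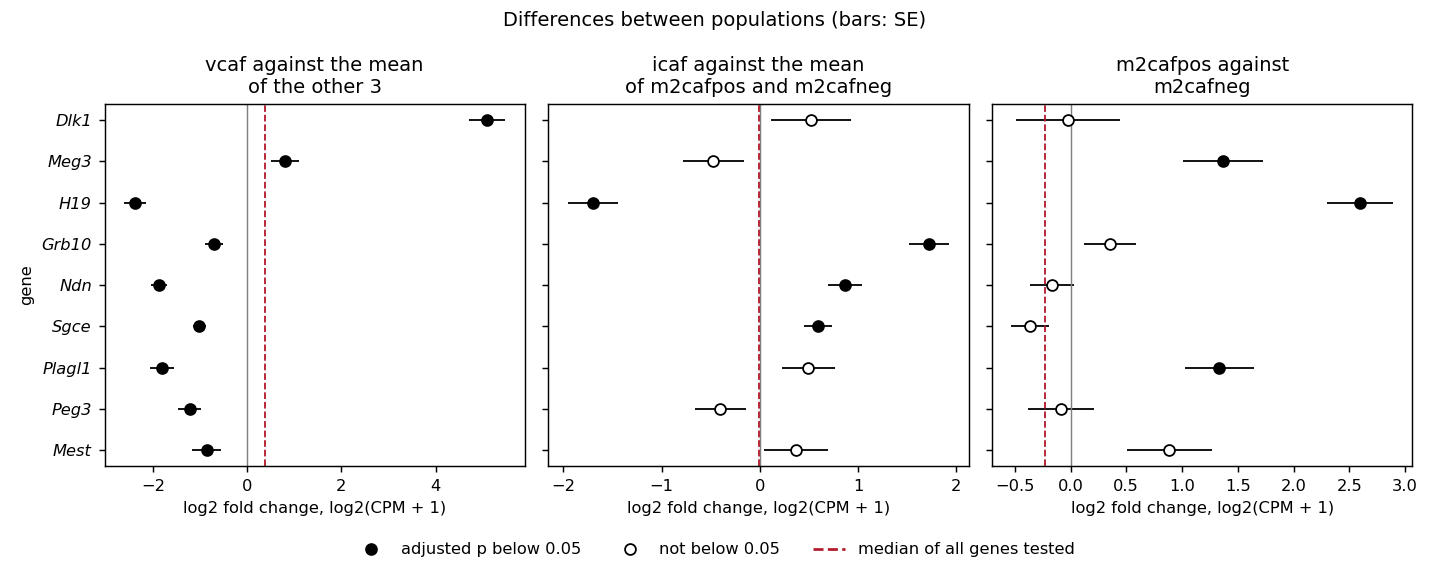
Log2 fold change with its SE (horizontal axes, log2(CPM + 1) scale) of the 9 genes (rows) for vcaf over the mean of the other populations (left), icaf over m2cafpos and m2cafneg averaged (middle) and m2cafpos over m2cafneg (right). Filled points passed a limma adjusted p of 0.05, and the dashed line is the median of all genes tested. Dlk1 lies at 5.10 in the first panel, Grb10 at 1.73 in the second and H19 at 2.60 in the third.

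Within mice, the m2cafpos over m2cafneg ratio was above 1 in 3 of 3 mice for H19, Meg3, Plagl1, Mest and Grb10 and below 1 in 3 of 3 for Sgce. For Dlk1, Ndn and Peg3 the mice differed in direction. Mouse 30 had the highest value in 21 of the 36 sets of 3 libraries that share a gene and a population, mouse 31 in 10 and mouse 27 in 5.

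**Figure D4:**
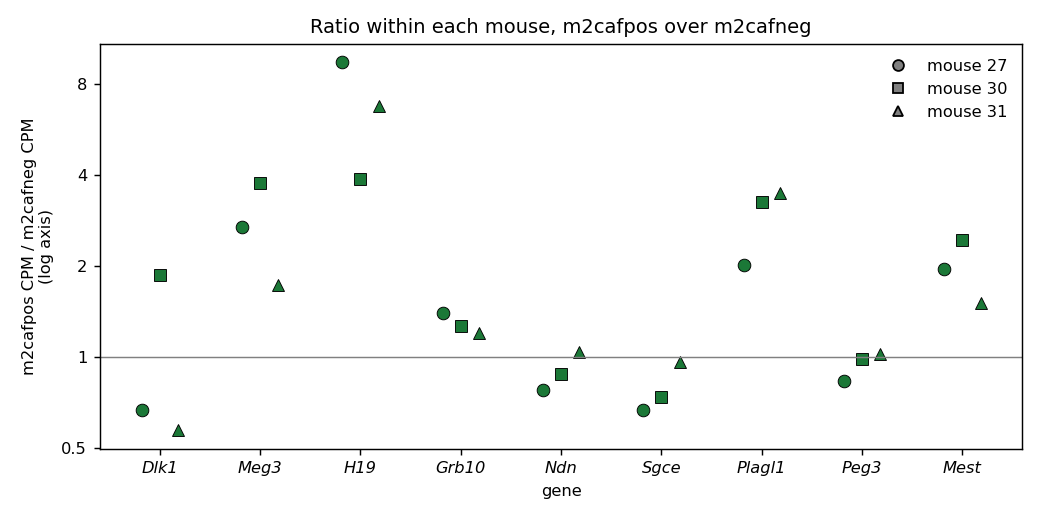
Ratio of the m2cafpos to the m2cafneg CPM within each mouse (vertical axis, log scale) for the 9 genes, with the grey line at a ratio of 1 and symbols for mice. H19 lies highest, at 9.43, 3.88 and 6.76, and Sgce lies below 1 in all mice.

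Of 22 further genes of the members' own imprinted domains, 16 were expressed above the filter. Between vcaf and the rest 8 of these were higher and 5 lower, beside 53.3% and 14.2% of all genes. Their median log2 fold change was 0.39 and that of all genes 0.38. After TMM scaling 4 were higher and 6 lower, and with the epithelial covariate 5 were higher and 1 lower. In the wider imprinted domain of Ndn, Snrpn, which encodes a splicing protein, was 1.55 higher in vcaf (SE 0.16, limma adjusted p = 7.21e-06), at 21.6 to 26.1 CPM against 4.30 to 11.9 CPM in the other libraries. In that comparison Snrpn thus changed in the direction opposite to Ndn. Snrpn was also lower in m2cafpos than in m2cafneg (log2 fold change -0.82, SE 0.20, limma adjusted p = 0.0124). With the epithelial covariate it was not called lower there. Peg12, a gene of the same region, was lower in icaf than in the mean of both m2caf populations (log2 fold change -0.67, SE 0.18, adjusted p = 0.0158), a call lost without icaf of mouse 30 or of mouse 31 (adjusted p up to 0.0737). Magel2, the closest neighbour of Ndn at 26.7 kb, was at most 0.209 CPM. Next to Grb10, Ddc, which encodes the enzyme that makes dopamine and serotonin, stood at 1.17 to 3.22 CPM in icaf and at most 0.911 CPM in the other libraries. Only its icaf libraries reached the 1 CPM of the filter, so Ddc was kept through the group where it was highest. Its test in icaf (log2 fold change 1.07, SE 0.20, limma adjusted p = 0.00206) is therefore no independent support. Cobl, an actin nucleator on the other side, was 1.20 higher in vcaf than in the rest (SE 0.21, adjusted p = 0.000356) and lower in m2cafpos than in m2cafneg (log2 fold change -1.31, SE 0.26, adjusted p = 0.00504), and both calls ended with the epithelial covariate (adjusted p = 0.118 and 0.303). Pon2, a paraoxonase gene of the Sgce domain, was lower in icaf than in the mean of both m2caf populations (log2 fold change -0.40, SE 0.09, adjusted p = 0.00647, though not with the epithelial covariate), whereas Pon3 was at 31.7 to 42.0 CPM throughout and passed none of the 3 tests. Mkrn3 passed none either, and Copg2, Ube3a and Ppp1r9a were called higher in vcaf by 0.74, 0.58 and 0.59 (SE 0.21, 0.15 and 0.25), all lost after TMM scaling (adjusted p = 0.166, 0.334 and 0.375). Ppp1r9a was also lower in m2cafpos than in m2cafneg (log2 fold change -0.99, SE 0.30, adjusted p = 0.0311), likewise lost after TMM scaling (adjusted p = 0.0807). Usp29, whose start is 146 bases from Peg3, was at most 0.270 CPM.

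Of 30 imprinted genes outside these domains, 25 were expressed above the filter, of which 13 were higher and 6 lower in vcaf (8 and 8 after TMM scaling, 7 and 2 with the epithelial covariate), beside 53.3% higher and 14.2% lower of all genes. Axl, a receptor tyrosine kinase gene, was highest in icaf, as were Grb10, Ndn and Sgce. It stood at 339, 362 and 269 CPM in vcaf, 1397, 1579 and 1191 CPM in icaf, 505, 610.5 and 484 CPM in m2cafpos and 590.2, 594 and 442 CPM in m2cafneg. Axl was 1.37 higher in icaf than in the mean of both m2caf populations (SE 0.14, limma adjusted p = 2.03e-05) and lower in vcaf than in the rest (log2 fold change -1.19, SE 0.13, adjusted p = 1.12e-05). Slc38a4, an amino acid transporter gene, was lower in vcaf than in the rest (log2 fold change -2.84, SE 0.35, adjusted p = 2.76e-05). Slc22a3, an organic cation transporter gene, was 1.74 higher in vcaf (SE 0.25, adjusted p = 9.16e-05). Gnas, which encodes the stimulatory G protein alpha subunit, was 1.44 higher in vcaf (SE 0.16, adjusted p = 1.31e-05) at 5.53 to 8.87 CPM against 1.25 to 2.81 CPM elsewhere. Gene models on the other strand overlap Gnas, so its low values are uncertain. In m2cafpos against m2cafneg, all 7 calls with limma were of lower genes (2 higher and 3 lower after TMM scaling), beside 3.51% higher and 22.6% lower of all genes. They were led by Phlda2, a placental growth restraint gene in mouse (log2 fold change -1.38, SE 0.24, adjusted p = 0.00326), and Sfmbt2, a Polycomb gene (-1.01, SE 0.20, adjusted p = 0.00510). Both calls ended with the epithelial covariate (adjusted p = 0.235 and 0.225).

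Around Grb10, 17 of 18 genes of insulin and IGF signalling were expressed above the filter. In vcaf 7 were higher and 5 lower (5 and 7 after TMM scaling, 4 and 4 with the epithelial covariate), beside 53.3% and 14.2% of all genes. In icaf 1 was higher and 8 lower (1 and 3 with the covariate), beside 12.1% and 14.2% of all genes. In m2cafpos against m2cafneg 5 were higher and 5 lower (5 and 3 after TMM scaling, 1 higher with the covariate), beside 3.51% and 22.6% of all genes. Igf1, the growth factor itself, stood at 8.75, 10.0 and 10.7 CPM in vcaf, 268, 142 and 285 CPM in icaf, 369, 449 and 388 CPM in m2cafpos and 261, 241 and 254 CPM in m2cafneg, and was lower in vcaf than in the rest (log2 fold change -4.71, SE 0.17, limma adjusted p = 4.80e-10). Igfbp4, an IGF binding protein gene, was lower in vcaf (log2 fold change -2.53, SE 0.12, adjusted p = 4.28e-09) and lower in icaf than in the mean of both m2caf populations (log2 fold change -0.999, SE 0.13, adjusted p = 9.93e-05). Igfbp2, another of these, was lower in vcaf than in the rest (log2 fold change -2.37, SE 0.23, adjusted p = 2.97e-06) and lower in icaf than in the mean of both m2caf populations (log2 fold change -2.91, SE 0.24, adjusted p = 4.24e-06). It stood at 111, 85.0 and 47.4 CPM in m2cafpos against 11.5 to 19.8 CPM in m2cafneg and was 2.37 higher in m2cafpos (SE 0.28, adjusted p = 0.000548), with adjusted p = 0.0512 under the epithelial covariate. Grb7, a relative of Grb10, was lower in m2cafpos than in m2cafneg (log2 fold change -1.86, SE 0.30, adjusted p = 0.00243). That call was lost with the epithelial covariate (adjusted p = 0.259). Pik3r1, which encodes a regulatory subunit of PI3 kinase, was 1.90 higher in vcaf (SE 0.22, adjusted p = 1.53e-05). Igfbp7 was lower in icaf than in the mean of both m2caf populations (log2 fold change -0.71, SE 0.14, adjusted p = 0.00295).

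Of 9 genes of the dystrophin complex that holds sarcoglycans, 7 were expressed above the filter. In vcaf 4 were higher and 3 lower (3 and 3 after TMM scaling, 3 and 2 with the epithelial covariate), beside 53.3% and 14.2% of all genes. Like Sgce, Sspn (log2 fold change -1.34, SE 0.11, limma adjusted p = 6.94e-07) and Sgcd (-1.30, SE 0.17, adjusted p = 4.71e-05) were lower in vcaf, and Dmd, which encodes dystrophin, was 1.77 higher there (SE 0.13, adjusted p = 2.96e-07). Utrn, which encodes the related utrophin, was 1.42 higher in vcaf (SE 0.12, adjusted p = 1.14e-06). Of 13 genes that set or keep DNA methylation and imprints, 12 were expressed above the filter, with 10 higher and 1 lower in vcaf (6 and 1 after TMM scaling, 4 higher with the epithelial covariate), beside 53.3% and 14.2% of all genes. Tet2 and Tet3, which encode enzymes that oxidise methylcytosine, were 1.23 and 1.36 higher (SE 0.12 and 0.19, adjusted p = 4.63e-06 and 7.30e-05). The methyltransferase genes Dnmt3a and Dnmt1 were 0.74 and 0.9965 higher (SE 0.12 and 0.18, adjusted p = 0.000164 and 0.000432), and the Dnmt1 call ended with the covariate (adjusted p = 0.245). The lower one was Zfp57, a zinc-finger gene that protects imprints in the embryo (log2 fold change -0.77, adjusted p = 0.00253, and 0.303 with the covariate). Zfp57 stood at 8.91, 8.39 and 10.7 CPM in vcaf, 4.08, 5.60 and 5.42 CPM in icaf, 25.9, 48.7 and 28.8 CPM in m2cafpos and 22.4, 30.8 and 24.1 CPM in m2cafneg. All icaf values were below all others, and Zfp57 was lower in icaf than in the mean of both m2caf populations (log2 fold change -2.33, SE 0.19, adjusted p = 3.94e-06).

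Among 8727 genes with a mean of at least 10 CPM, the genes whose profile over the 12 libraries was most like a member's were found by the root mean square (RMS) difference between scaled profiles, in SD units, where 0 is identity. They were Rapgef2, Limd1 and Map3k20 for Dlk1 (0.215 to 0.226), P3h3, Zmat3 and C1qtnf3 for H19 (0.321 to 0.341) and Max, Pkd1 and Lemd2 for Meg3 (0.462 to 0.532). For Ndn they were Gstm2, Adamts5 and Scara3 (0.163 to 0.183), for Sgce B2m, Emilin2 and Clec3b (0.184 to 0.229) and for Grb10 Slfn5, Mapk7 and Hspb8 (0.289 to 0.315). For Plagl1 they were Slc41a3, Ccn5 and Ctla2a (0.360 to 0.380) and for Mest Parp11, Extl2 and Ptgs2 (0.336 to 0.609). Among the members themselves Ndn and Sgce were the most alike, at 0.230, and Dlk1 and Ndn the least, at 1.90.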

How the data were processed

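RNA from 12 libraries (4 sorted populations, 3 mice, numbers 27, 30 and 31) was compared. The deposited values are CPM, reads divided by the library's total by the authors. Software named in the submitters' processing notes is bcl2fastq and DRAGEN, with the build mm10 and no versions. The counting tool, its use of strand and the annotation are not given here. The title 27_vacf was taken to mean vcaf, the spelling of the table's column. Of 55774 lines, 287 repeated a gene with the same values. CPM were whole multiples of 1 read within 0.001 reads for 100% of values, which gave back the read counts. Floors and intervals cover counting error only, since reads carried no molecular identifiers.

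The 15456 genes that reached 1 CPM in 3 or more libraries were tested on the log2(CPM + 1) scale (limma 3.58.1, R 4.3.3, eBayes with trend, two-sided, 8 residual and 4.29 prior degrees of freedom), with Benjamini-Hochberg adjustment within each of 8 comparisons and a threshold of 0.05. Alternatives were TMM factors (edgeR 4.0.16), median-of-ratios factors (DESeq2 1.42.0), a pseudocount of 0.1 CPM, no filter, edgeR's quasi-likelihood test on the recovered reads, mouse as a block, the mean of the epithelial markers as a covariate, and leaving out each library. Same-numbered libraries come from the same animal, and their deviations from the population means correlated (median r 0.293, 0.0843 to 0.452, 18 pairs). For libraries of other mice the median was -0.149 (36 pairs). That value is tied to the first, since deviations from a population's own mean cancel out within it. Scripts were tested on simulated data. Gene positions and exon lengths are from GENCODE M21 on GRCm38, which held 99.4% of the identifiers, and promoter and microRNA sequences from RefSeq on GRCm38.p6, with promoters for 7 of the 9 members. The members, gene lists and tests were chosen with earlier results of these data known. Up to 4 genes of a list with the smallest adjusted p in a comparison were named, with all expressed neighbours in the members' domains and Igf2, Cdkn1c, Igf2r and Gnas. Zfp57 in vcaf was singled out after their values were seen. Of 214 listed genes, 1 did not match by symbol. The genes most like Peg3 are not reported here.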

Additional observations from a re-analysis of the deposited data

How the results depend on the processing

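The count of members past the threshold stayed within 1.5 times its value in every comparison under TMM and median-of-ratios factors, the smaller pseudocount, no filter, edgeR, the replicate block and the loss of any 1 library. With the epithelial covariate it was 5 for vcaf against the rest, 2 for icaf against the mean of both m2caf populations, 1 for m2cafpos against m2cafneg and 19 over all 6 pairs, against 9, 4, 3 and 34 without it. The covariate moves with the populations, so it also takes up part of the differences between them. The mouse as a block ended no member's call and added 2, both of Sgce (m2cafpos against m2cafneg, -0.36, adjusted p = 0.0476, and icaf against m2cafneg, 0.41, adjusted p = 0.0256). Over all genes, m2cafpos against m2cafneg gave 4041 calls as deposited, 2585 with TMM, 2638 with median-of-ratios factors, 2617 without the filter, 2088 with edgeR and 252 with the covariate, which gave 4546 against 10431 for vcaf and 1876 against 4063 for icaf. Leaving out single libraries gave 8931 to 10485 calls for vcaf, 2541 to 4273 for icaf and 2241 to 4219 for m2cafpos against m2cafneg. No called member changed direction under any alternative.

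Signs that turned were all of differences that did not pass the threshold, and the cause was not tested. For m2cafpos against m2cafneg, TMM, median-of-ratios and edgeR gave 0.12, 0.14 and 0.40 for Dlk1, 0.17, 0.20 and 0.19 for Peg3 and 0.0953, 0.13 and 0.0591 for Ndn. For vcaf against m2cafneg they gave -0.23, -0.22 and -0.29 for Grb10. The covariate gave -0.15 for Grb10 in m2cafpos against m2cafneg, 0.46 for Meg3 and 0.30 for Grb10 in vcaf against m2cafpos, and -0.22, -0.23 and -0.12 for Dlk1, Meg3 and Sgce in icaf against m2cafneg. Leaving out 1 library gave ranges of -0.00935 to 1.06 for Dlk1 in icaf against the mean of both m2caf populations, -0.41 to 0.26 for Dlk1 and -0.34 to 0.16 for Peg3 in m2cafpos against m2cafneg, -0.28 to 0.28 for Meg3 in vcaf against m2cafpos, -0.75 to 0.22 for Mest and -0.19 to 0.29 for Grb10 in vcaf against m2cafneg, -0.21 to 0.18 for Mest and -0.38 to 0.0844 for Plagl1 in icaf against m2cafpos, and -0.0196 to 1.05 for Dlk1 and -0.0618 to 0.56 for Meg3 in icaf against m2cafneg. With 3 libraries a population, a p that misses the threshold does not show that levels were alike.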
